A study of Mus musculus with 6 samples.

Results

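The 10 genes described here are immediate-early transcription factor genes, chosen by symbol (*Fos*, *Fosb*, *Fosl1*, *Fosl2*, *Junb*, *Jund*, *Egr1*, *Egr3*, *Nr4a1* and *Ier2*). They come from the 24062 genes of a bulk RNA-seq comparison between mouse genotypes in nerve tissue and neurofibroma. Immediate-early genes are transcribed within minutes of a growth factor, depolarization or stress signal, because the factors that start their transcription, SRF with its TCF partners and CREB, are already bound and are phosphorylated by ERK and related kinases. FOS and JUN proteins pair through leucine zippers into the dimer called AP-1, EGR proteins bind GC-rich sites through zinc fingers, NR4A proteins are orphan nuclear receptors, and IER2 is a small nuclear protein of the same response. In the peripheral nerve, NF1 is a negative regulator of RAS, which lies upstream of ERK, and EGR proteins are known for their part in the Schwann cell (SC) program.

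RNA from dorsal root ganglion (DRG) and tumor was sequenced in 6 libraries, 3 from Nf1fl/fl;DhhCre mice and 3 from mice labelled Rx1flfl;Rx3fl/fl;DhhCre, all on a C57BL/6-I129 background and without treatment in the labels. By the extraction protocol the second group also carries Nf1fl/fl, which its genotype label leaves out, so that loss of *Nf1* is shared by both groups and loss of *Runx1* and *Runx3* sets them apart by design. Cre under the *Dhh* promoter acts in the SC lineage, and cells of the tissue in which it is not active, such as macrophages, keep intact copies of the floxed genes. The tissue is labelled DRG for the first group and neurofibroma tumor for the second, so that genotype and labelled tissue cannot be told apart. The extraction protocol gives DRG/tumors for both genotypes together, and the study's text calls the Nf1fl/fl;DhhCre tissue tumors and the other DRG/tumors, which goes against the labels. The tissue of each group is therefore uncertain. The age of these mice is not given in the sources used here. Replicates were numbered within each group in the order of the labels.

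Total counts ranged from 12439296 to 16682194 per library. Values are CPM, counts relative to a common library total, scaled by trimmed mean of M values (TMM) factors of 0.95 to 1.04. A gene was called a differentially expressed gene (DEG) when its adjusted p was below 0.05 and its change was over 2-fold in limma-voom, adjusting by Benjamini-Hochberg across 15652 tested genes. Whether the libraries come from separate mice beyond their separate labels is not stated, and p-values measure the spread between these samples. *Runx1* had 131, 141 and 172 CPM in Nf1fl/fl;DhhCre replicates 1 to 3 against 84.0, 78.9 and 185 CPM, so that replicate 3 labelled double knockout had the highest *Runx1* of all. Its log2 fold change was -0.44 (adjusted p = 0.37 from limma-voom). Without that replicate it was -0.85 and under 2-fold (limma-voom adjusted p = 0.029), and leaving out any other library gave -0.49 to -0.21. Counts per gene take in all exons and all cells of the tissue, so they cannot show how far floxed alleles were lost. The group is called the libraries labelled double knockout throughout. *Runx3* was lower in each library labelled double knockout (10.3 to 13.5 CPM) than in each Nf1fl/fl;DhhCre library (15.1 to 29.9 CPM), at an adjusted p of 0.104 in limma-voom, and *Nf1* averaged 302 ± 30.8 CPM against 290.3 ± 44.5 CPM (SD, n = 3 each). For 4 of the 6 libraries the title and the file header give the number of another mouse of the same genotype. Groups are unaffected, but which mouse a replicate number stands for is uncertain there, and replicates are named here by the sample that holds the counts. One library labelled double knockout comes from another sequencing run, and the labels and file headers differ on whether it is replicate 2 or replicate 3. Replicate 2 of each group stands apart in skeletal muscle genes, which summed to 19206 and 48952 CPM there and to between 96.5 and 585 CPM in the other 4 libraries. The called members are therefore also given without these libraries.

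*Fosl2*, *Egr1* and *Egr3* fell in the libraries labelled double knockout, by 2.74-fold, 2.30-fold and 2.11-fold. No member rose in limma-voom, edgeR or DESeq2, nor was any higher at an unadjusted p below 0.05. *Fos*, *Junb* and *Ier2* were each lower in every library labelled double knockout than in every Nf1fl/fl;DhhCre library, at log2 fold changes of -1.07, -1.35 and -1.43, and did not pass the test. *Fosb*, *Jund* and *Nr4a1* had log2 fold changes between -0.44 and -0.10, and *Fosl1* was at or near 0 counts. The 3 DEGs were among 9 members tested, where 5.36% of all genes tested were DEGs in this direction (13.4% in either direction and 8.03% as higher). The same 3 had an adjusted p below 0.05, against 8.22% of all genes in this direction. With edgeR 3 members were DEGs and with DESeq2 5, against 6.23% and 7.9% of all genes. Without Nf1fl/fl;DhhCre replicate 1, where all DEGs fell from 2096 to 362, no member was a DEG and 3 were lower at an unadjusted p below 0.05 in limma-voom. In 7 of the 9 the groups did not overlap and the libraries labelled double knockout were lower, against 20.5% of all genes. All 9 log2 fold changes were negative, against 48.9% of all genes, with a median of -1.07 against 0.02. *Ier2* passed the filter on low counts through the group in which it was higher, so these counts describe the members and are not support of their own. In bulk tissue, fewer cells that express a gene and less RNA of it per cell cannot be told apart.

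**Figure D1:**
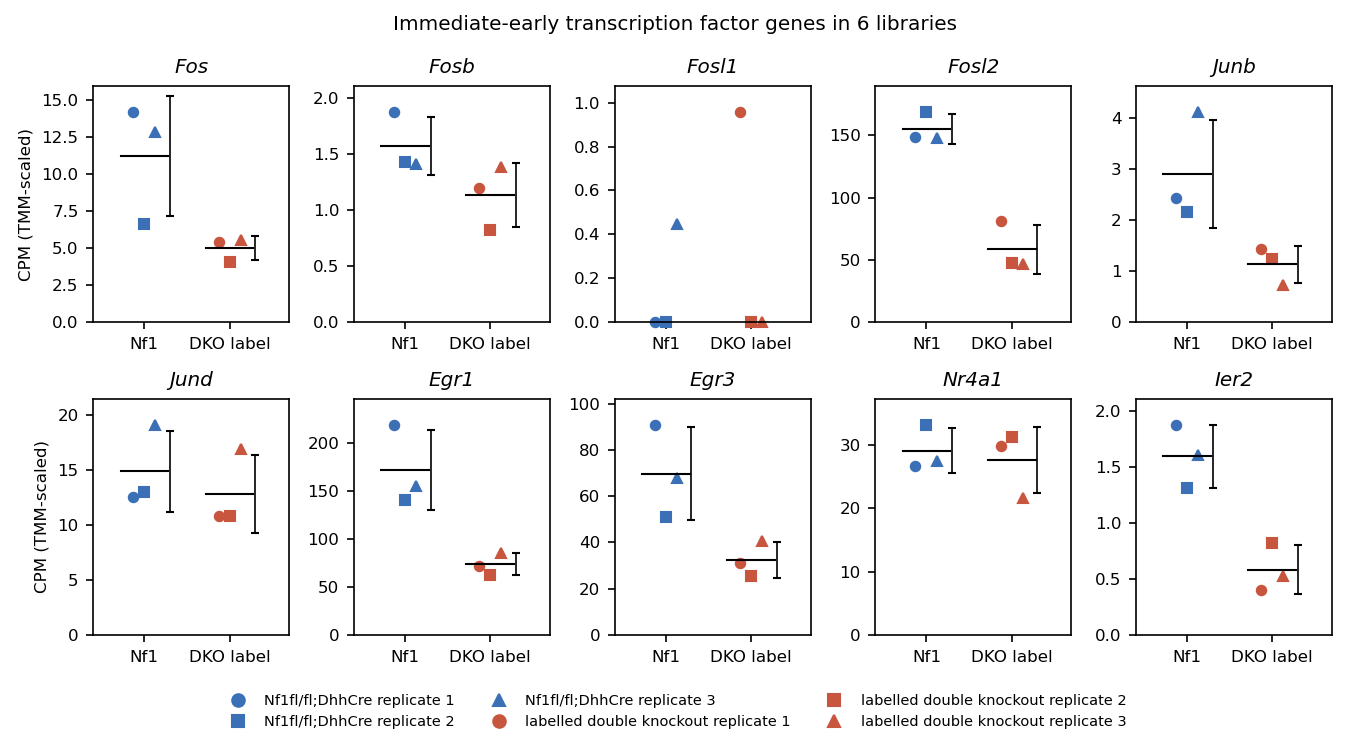
Level of each member in CPM, one panel a gene with its own linear axis from 0, in the 3 Nf1fl/fl;DhhCre libraries (blue) and the 3 libraries labelled double knockout (red). Lines and bars are the mean and SD of 3 libraries (not drawn for *Fosl1*, which is at 0 in 4 libraries). *Egr1*, *Egr3*, *Fos*, *Fosl2*, *Junb* and *Ier2* show no overlap between the groups, *Fosb* separates only by 1.41 against 1.39 CPM, and *Jund* and *Nr4a1* overlap.

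The promoters of the members are shown for the 3 that hold the EGR motif, since *Egr1* and *Egr3*, whose proteins bind it, are members themselves. RefSeq promoter sequences of GRCm38.p6, from 250 bases before to 50 bases after the annotated start, were given for 6 of the 10 members (*Fos*, *Fosb*, *Fosl2*, *Junb*, *Jund* and *Nr4a1*). Each is printed 5′ to 3′ on the strand of its gene, with the match to GCGNGGGCG, or to its reverse complement, in capitals.
Fosl2: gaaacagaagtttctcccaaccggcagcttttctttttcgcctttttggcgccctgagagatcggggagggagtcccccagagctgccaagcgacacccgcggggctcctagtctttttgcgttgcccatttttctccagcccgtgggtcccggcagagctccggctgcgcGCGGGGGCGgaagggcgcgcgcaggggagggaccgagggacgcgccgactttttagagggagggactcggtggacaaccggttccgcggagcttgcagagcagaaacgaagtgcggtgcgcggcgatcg
Fosb: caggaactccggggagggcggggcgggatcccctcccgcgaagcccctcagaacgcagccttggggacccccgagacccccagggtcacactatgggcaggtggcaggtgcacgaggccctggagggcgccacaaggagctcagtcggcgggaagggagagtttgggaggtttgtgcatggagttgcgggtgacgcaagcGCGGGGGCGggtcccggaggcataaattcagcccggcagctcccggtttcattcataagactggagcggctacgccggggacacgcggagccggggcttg
Nr4a1: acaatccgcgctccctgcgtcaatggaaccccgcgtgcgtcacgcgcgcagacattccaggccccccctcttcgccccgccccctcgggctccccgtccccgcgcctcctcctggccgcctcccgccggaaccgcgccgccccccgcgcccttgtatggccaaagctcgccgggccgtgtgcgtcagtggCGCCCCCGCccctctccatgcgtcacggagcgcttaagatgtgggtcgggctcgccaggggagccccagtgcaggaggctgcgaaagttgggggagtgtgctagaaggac

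The *Fosl2* promoter (chr5:32136222-32136521, plus strand) holds the motif on the strand of the gene, 79 to 71 bases before the start. The *Fosb* promoter (chr7:19309996-19310295, minus strand) holds it on the strand of the gene, 50 to 42 bases before the start. The *Nr4a1* promoter (chr15:101266596-101266895, plus strand) holds it on the opposite strand, 60 to 52 bases before the start. Among all 32851 promoters of this length 5.55% had such a match on either strand, and the promoters of *Fos*, *Junb* and *Jund* had none. Of these 3 genes with a match, *Fosl2* fell and *Fosb* and *Nr4a1* were not called. None of the 6 promoters matched the CRE (TGACGTCA, 1.79% of all promoters), the AP-1 motif (TGANTCA, 7.81%), the NBRE bound by NR4A proteins (AAAGGTCA, 1.51%), the RUNX motif (TGTGGT, 16.8%) or the CArG box bound by SRF (1.63%), on either strand. The matches printed above overlapped no other motif. The starts in RefSeq lay 671 bases downstream of the GENCODE gene start for *Fosl2*, 12577 bases downstream for *Nr4a1* and 1210 bases upstream for *Jund*, so another start would give another window. Only exact letters inside this window were searched, so a gene without a match, *Fos* included, can still hold the site further away. A match is a description of letters and not a bound site.

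The FOS genes encode the AP-1 proteins that depend on a JUN partner to bind DNA well, and only *Fosl2* among them passed the test. *Fosl2* encodes FRA-2, a longer-lived FOS protein (chromosome 5, 32135801 to 32157842 of GRCm38, plus strand). Its level was 149, 169 and 148 CPM in Nf1fl/fl;DhhCre replicates 1 to 3, and under the double-knockout label it was 81.2, 47.8 and 46.9 CPM. Values of each gene follow in this order, replicates 1 to 3 of each group. The groups did not overlap, and replicate 1 labelled double knockout was the highest of its group. The mean fell from 155 ± 11.7 CPM (SD, n = 3) to 58.6 ± 19.6 CPM (SD, n = 3), a log2 fold change of -1.45 (SE 0.21, 95% interval -1.96 to -0.95, adjusted p = 0.0106 from limma-voom). Without replicate 2 labelled double knockout the log2 fold change was -1.34 (adjusted p = 0.0362 from limma-voom) and -1.31 without replicate 3 (limma-voom adjusted p = 0.0246). Without the muscle-rich replicate 2 of each group it was -1.27 (adjusted p = 0.0363 from limma-voom). Without Nf1fl/fl;DhhCre replicate 1 it was -1.46 and missed the threshold (adjusted p = 0.0505 from limma-voom).

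*Fos* encodes the short-lived partner that gives the family its name (chromosome 12, 85473890 to 85477273, plus strand). Its level was 14.1, 6.61 and 12.8 CPM (204, 111 and 200 counts) against 5.42, 4.03 and 5.55 CPM (68, 49 and 84 counts). Nf1fl/fl;DhhCre replicate 2 lay nearest to the other group without reaching it. The means were 11.2 ± 4.02 CPM (SD, n = 3) and 5.0 ± 0.841 CPM (SD, n = 3), with a log2 fold change of -1.07 (SE 0.39, 95% interval -1.98 to -0.15, adjusted p = 0.0968 from limma-voom). This call depended on the test and on that replicate. *Fos* was a DEG in DESeq2 (-1.17, adjusted p = 0.0104) and with sample quality weights in limma-voom (-1.30, adjusted p = 0.0389). It was also one without Nf1fl/fl;DhhCre replicate 2 (-1.38, adjusted p = 0.0152 from limma-voom) and without replicate 2 of each group (-1.27, adjusted p = 0.0417 from limma-voom), and not in edgeR (-1.16, adjusted p = 0.0523).

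*Fosb* encodes a partner with a short and a long isoform, of which gene counts cannot tell (chromosome 7, 19302696 to 19310051, minus strand). It was low, at 1.87, 1.43 and 1.41 CPM (27, 24 and 22 counts) against 1.20, 0.822 and 1.39 CPM (15, 10 and 21 counts). The lowest Nf1fl/fl;DhhCre library and the highest library labelled double knockout were 1 count apart in raw reads. Its log2 fold change was -0.44 (SE 0.45, 95% interval -1.49 to 0.61, adjusted p = 0.522 from limma-voom). *Fosl1*, which encodes FRA-1 (chromosome 19, 5447547 to 5455946, plus strand), had 7 counts in Nf1fl/fl;DhhCre replicate 3 (0.449 CPM), 12 counts in replicate 1 labelled double knockout (0.956 CPM) and 0 in the other 4 libraries. A count of 0 allows up to 3 counts, or between 0.179 and 0.247 CPM over the 6 libraries, which covers counting error only. *Fosl1* failed the filter and was not tested, and no fold is given. Its region overlaps *Ccdc85b* on the other strand, and reads of overlapping genes cannot be told apart where counting by strand is not stated.

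Divided by the exon length of each gene, which allows a rough comparison between genes, *Fosl2* made up most of the FOS family RNA in every library. This length is the union of all annotated exons and can exceed that of the RNA counted, which lowers a share. For *Fosb* it is 6243 bases over 7 transcripts. Its share of the summed CPM per kilobase of the FOS genes was 70.9%, 85.1% and 72.1% in the Nf1fl/fl;DhhCre libraries and 73.9%, 72.8% and 65.2% in the libraries labelled double knockout. The groups overlapped, with a difference of -5.41 percentage points (two-sided exact permutation test, p = 0.6, n = 3 per group). The share of *Fos* was 27.7%, 13.7% and 25.8% against 20.3%, 25.3% and 31.8%, a difference of 3.36 percentage points (two-sided exact permutation test, p = 0.7, n = 3 per group). *Fosb* held 1.07% to 1.38% against 1.69% to 2.99%, without overlap, at the smallest p that 3 against 3 libraries can give (two-sided exact permutation test, p = 0.1). *Fosl1* held 1.04% and 4.14% in the libraries with counts and 0 in the others (two-sided exact permutation test, p = 1). These 4 shares are parts of one total and not independent of one another. The summed level of the FOS genes was 162 to 177 CPM in the Nf1fl/fl;DhhCre libraries and 52.6 to 88.8 CPM in the libraries labelled double knockout.

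The JUN genes encode the partners that FOS proteins need. *Junb* encodes a JUN protein that can also restrain AP-1 activity (chromosome 8, 84974484 to 84978718, minus strand, overlapping *Prdx2* on the other strand). It was at 2.43, 2.14 and 4.11 CPM (35, 36 and 64 counts) against 1.43, 1.23 and 0.726 CPM (18, 15 and 11 counts). The groups did not overlap, and replicate 3 was the highest of the Nf1fl/fl;DhhCre libraries and, in the other group, the lowest. The log2 fold change was -1.35 (SE 0.51, 95% interval -2.53 to -0.16, adjusted p = 0.104 from limma-voom). In DESeq2 *Junb* was a DEG (-1.37, adjusted p = 0.0439), and in the other settings with all 6 libraries its log2 fold change lay between -1.42 and -1.20 without a call. *Jund* encodes the JUN protein that is expressed steadily rather than induced (chromosome 8, 70698949 to 70700616, plus strand, a single exon overlapping *Gm11175* on the other strand). It was at 12.6, 12.9 and 19.1 CPM against 10.8, 10.8 and 16.8 CPM. In both groups replicate 3 was the highest, and the groups overlapped. Its log2 fold change was -0.20 (SE 0.27, 95% interval -0.83 to 0.43, adjusted p = 0.637 from limma-voom), and it was 0.03 without Nf1fl/fl;DhhCre replicate 3.

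*Jun*, the founding JUN gene and an immediate-early gene outside the 10, was at 109, 92.9 and 92.1 CPM against 69.4, 65.0 and 69.9 CPM. It was lower in each library labelled double knockout, at a log2 fold change of -0.52 ± 0.13 (SE, limma-voom adjusted p = 0.0324), which is under 2-fold and so no DEG. In all but 1 of the 6 leave-one-out fits (1 library omitted from each) its adjusted p was above 0.05 in limma-voom, up to 0.118 without Nf1fl/fl;DhhCre replicate 1. Within a library, log2 CPM of *Junb* minus that of *Jund* was -2.35, -2.57 and -2.20 in the Nf1fl/fl;DhhCre libraries and -2.88, -3.09 and -4.47 in the libraries labelled double knockout. Such a difference between 2 genes of one library does not depend on how the library is scaled. This pair, like the 3 pairs below, was chosen after its values were seen. In each of the 4 pairs the two-sided exact permutation p was 0.1 (0.1 adjusted over the 4), the smallest that 3 against 3 libraries can give, and it is no evidence for pairs chosen this way.

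Both EGR members fell. *Egr1* encodes a zinc finger activator that is among the earliest genes to answer ERK (chromosome 18, 34859823 to 34864984, plus strand). Its level was 219, 141 and 155 CPM in the Nf1fl/fl;DhhCre libraries against 72.1, 62.9 and 85.6 CPM. The groups did not overlap, and Nf1fl/fl;DhhCre replicate 1 was well above the others. The mean fell from 172 ± 41.4 CPM (SD, n = 3) to 73.6 ± 11.4 CPM (SD, n = 3), a log2 fold change of -1.20 (SE 0.21, 95% interval -1.68 to -0.72, adjusted p = 0.0134 from limma-voom). Without Nf1fl/fl;DhhCre replicate 1 it was -0.99, just under 2-fold (adjusted p = 0.0451 from limma-voom). Without replicate 2 labelled double knockout it was -1.09 (adjusted p = 0.0445 from limma-voom), -1.32 without replicate 3 (limma-voom adjusted p = 0.0242) and -1.21 without replicate 2 of each group (limma-voom adjusted p = 0.0241).

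*Egr3* encodes a related zinc finger factor of the same response (chromosome 14, 70077203 to 70082614, plus strand). It was at 90.9, 50.9 and 67.7 CPM against 31.0, 25.5 and 40.8 CPM. Its libraries ranked as those of *Egr1* did in both groups, and the groups did not overlap. The mean fell from 69.8 ± 20.1 CPM (SD, n = 3) to 32.4 ± 7.75 CPM (SD, n = 3), a log2 fold change of -1.07 (SE 0.27, 95% interval -1.70 to -0.45, adjusted p = 0.0332 from limma-voom). This was the least stable of the 3 DEGs. It held in only 2 of the 6 leave-one-out fits, those without Nf1fl/fl;DhhCre replicate 2 (-1.24, adjusted p = 0.0148 from limma-voom) and without replicate 3 labelled double knockout (-1.26, adjusted p = 0.0424 from limma-voom). It was lost without Nf1fl/fl;DhhCre replicate 1 (-0.84, adjusted p = 0.0864 from limma-voom) or replicate 3 (-1.03, adjusted p = 0.083), and without replicate 1 (-1.01, adjusted p = 0.0818) or replicate 2 (-0.91, adjusted p = 0.103) labelled double knockout. Without replicate 2 of each group it was -1.11 (adjusted p = 0.0333 from limma-voom).

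Of the other EGR genes neither was called. *Egr2*, which encodes KROX20, the factor that SCs need to myelinate, was at 99.5, 77.6 and 81.2 CPM against 123, 75.3 and 108 CPM. Its groups overlapped, at a log2 fold change of 0.23 ± 0.20 (SE, limma-voom adjusted p = 0.467). *Egr4* had 0 counts in all 6 libraries. In each Nf1fl/fl;DhhCre library *Egr1* lay above *Egr2* in log2 CPM, by 1.14, 0.86 and 0.94, and in each library labelled double knockout it lay below, at -0.76, -0.26 and -0.34. For *Egr3* minus *Egr2* the values were -0.13, -0.61 and -0.26 against -1.98, -1.56 and -1.40. The groups did not overlap in either pair. *Nab1* and *Nab2*, corepressors that bind EGR proteins, were not called by limma-voom, edgeR or DESeq2 (1 was lower at an unadjusted p below 0.05 in limma-voom), and their summed level was 176 to 186 CPM against 143 to 149.8 CPM.

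**Figure D2:**
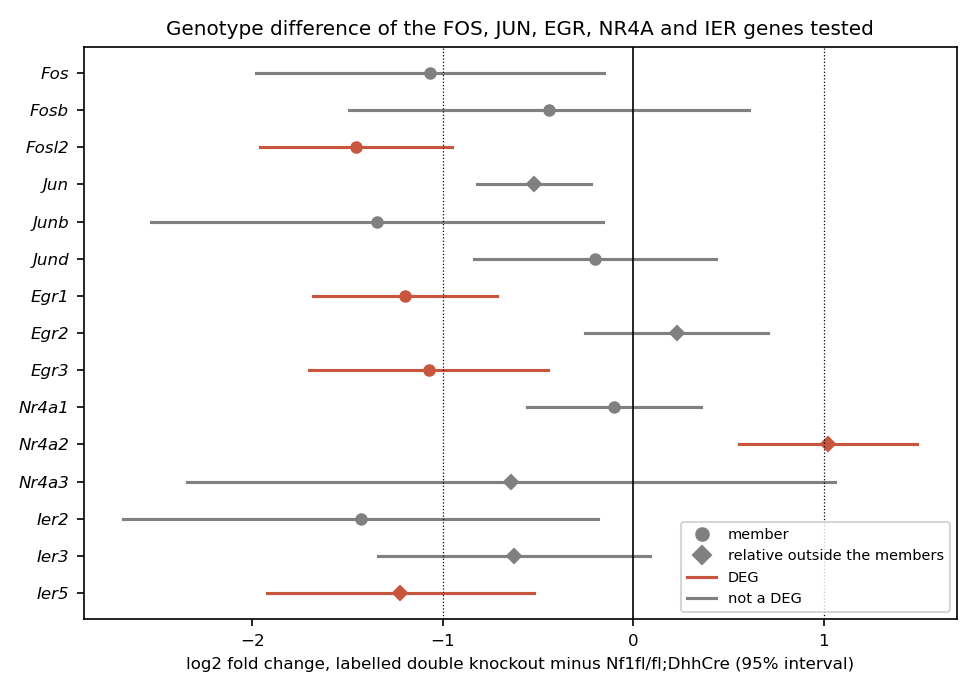
Log2 fold change, labelled double knockout minus Nf1fl/fl;DhhCre, of each FOS, JUN, EGR, NR4A and IER gene that was tested, with its 95% interval from limma-voom. Circles are members, diamonds relatives outside the 10, and red marks DEGs. *Fosl2*, *Egr1*, *Egr3* and *Ier5* lie below -1 as DEGs, *Fos*, *Junb* and *Ier2* lie below -1 without being DEGs, and *Nr4a2* lies at 1.02, while *Egr2* and *Nr4a1* lie near 0.

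*Nr4a1* encodes the nuclear receptor NUR77 (chromosome 15, 101254269 to 101274795, plus strand). It was at 26.6, 33.1 and 27.4 CPM against 29.9, 31.2 and 21.7 CPM. The groups overlapped over most of their range, with a log2 fold change of -0.10 (SE 0.19, 95% interval -0.56 to 0.36, adjusted p = 0.751 from limma-voom). The sign of this value was not stable, at 0.08 without replicate 3 labelled double knockout, 0.04 without Nf1fl/fl;DhhCre replicate 2 and 0.02 with sample quality weights. Its paralog *Nr4a2*, which encodes NURR1, rose from 50.4, 36.5 and 45.0 CPM to 108, 71.6 and 88.5 CPM, without overlap. The log2 fold change of *Nr4a2* was 1.02 ± 0.20 (SE, limma-voom adjusted p = 0.0178). Being near 2-fold, *Nr4a2* was a DEG in 3 of the 6 leave-one-out fits, which gave 0.92 to 1.17. It was lost without Nf1fl/fl;DhhCre replicate 1 (1.15, adjusted p = 0.0539), without Nf1fl/fl;DhhCre replicate 2 (0.93, adjusted p = 0.0239) and without replicate 1 labelled double knockout (0.92, adjusted p = 0.025), all from limma-voom. It also came under 2-fold with library size scaling only and with sample quality weights (0.94 in each). Log2 CPM of *Nr4a1* minus that of *Nr4a2* was -0.92, -0.14 and -0.72 against -1.86, -1.20 and -2.03, also without overlap. *Nr4a3* was at 1.25, 1.85 and 1.28 CPM against 2.63, 0.987 and 0.330 CPM, with overlap (log2 fold change -0.64, adjusted p = 0.569 from limma-voom).

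**Figure D3:**
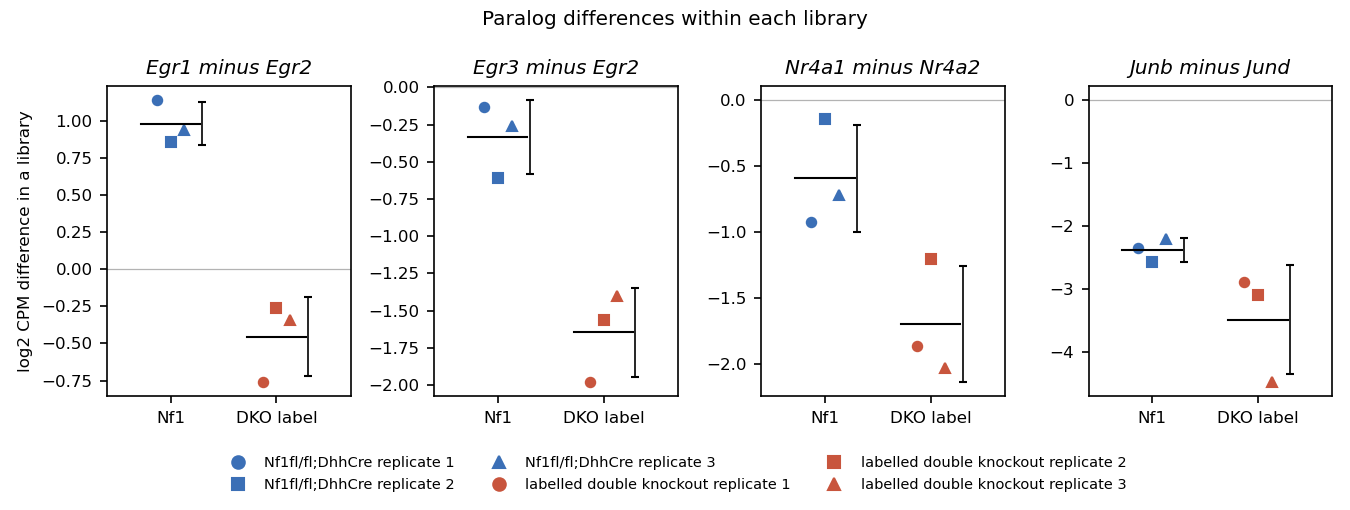
Difference in log2 CPM between 2 genes of one family within each library, with the mean and SD of the 3 libraries of each group. Each panel has its own axis, and the line at 0 marks equal CPM. The groups do not overlap in any of the 4 panels, and only *Egr1* minus *Egr2* changes sign, from between 0.86 and 1.14 to between -0.76 and -0.26.

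*Ier2* encodes a nuclear protein induced with FOS and EGR1 (chromosome 8, 84661331 to 84662852, minus strand, a single exon). It was at 1.87, 1.31 and 1.60 CPM (27, 22 and 25 counts) against 0.398, 0.822 and 0.528 CPM (5, 10 and 8 counts). The groups did not overlap, and both are close to the floor of the data. The log2 fold change was -1.43 (SE 0.53, 95% interval -2.68 to -0.18, adjusted p = 0.101 from limma-voom). The filter asked for about 0.691 CPM in 3 libraries, which *Ier2* met in all 3 Nf1fl/fl;DhhCre libraries and in 1 of the others. Of its relatives, *Ier5* fell from 18.0, 11.7 and 19.2 CPM to 8.45, 5.59 and 6.54 CPM (log2 fold change -1.22, adjusted p = 0.0317 from limma-voom). *Ier5* was a DEG in 1 of the 6 leave-one-out fits, the one without Nf1fl/fl;DhhCre replicate 2, and in the others its adjusted p from limma-voom reached 0.101. *Ier3* was at 13.3, 8.52 and 16.3 CPM against 6.85, 8.80 and 8.12 CPM, with overlap (log2 fold change -0.62, adjusted p = 0.19 from limma-voom).

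The order of the members by CPM per kilobase of exon differed between the groups below the first place. *Egr1* was highest in both, at 38.3 in the Nf1fl/fl;DhhCre libraries and 16.4 in the libraries labelled double knockout. In the Nf1fl/fl;DhhCre libraries it was followed by *Fosl2* (16.0), *Egr3* (15.8), *Jund* (8.90), *Nr4a1* (8.28), *Fos* (4.76), *Junb* (1.26), *Ier2* (1.05) and *Fosb* (0.252). Among these neighbours, the ranges over the 3 libraries overlapped for *Fosl2* and *Egr3*, for *Jund* and *Nr4a1* and for *Junb* and *Ier2*, and were apart for the rest. In the libraries labelled double knockout *Egr1* was followed by *Nr4a1* (7.86), *Jund* (7.67), *Egr3* (7.36) and *Fosl2* (6.06), each of which overlapped its neighbour. *Fos* (2.12), *Junb* (0.492), *Ier2* (0.383) and *Fosb* (0.182) came below, of which *Junb* and *Ier2* overlapped. *Fosl2* thus stood above *Nr4a1* and *Jund* in the first group and below them in the other, where the ranges overlapped step by step, while the value of *Nr4a1* was nearly the same in both. Exon lengths are the union of GENCODE exons, from 1522 bases for *Ier2* to 9680 bases for *Fosl2*, so this order is approximate.

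**Figure D4:**
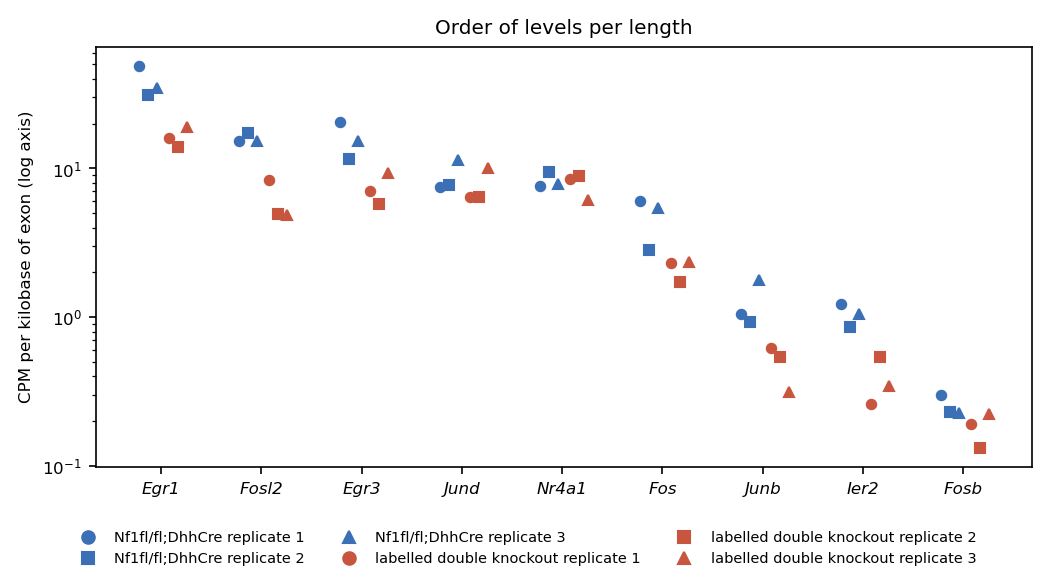
CPM per kilobase of exon of 9 members in each library on a log axis, ordered by the mean in the Nf1fl/fl;DhhCre libraries (blue). *Fosl1* is left out because it is at 0 in 4 libraries. *Egr1* is highest in both groups, and *Nr4a1* and *Jund* overlap between the groups while *Egr1*, *Fosl2* and *Egr3* are lower in the libraries labelled double knockout (red).

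Genes outside the 10 were ranked by how closely their log2 CPM, centred on its mean, followed a member over the 6 libraries, among 10217 candidates that averaged 3 or more on that scale. Likeness is the mean absolute difference, so a smaller value is closer, and it describes these 6 libraries only. Nearest to *Fos* were *Phlda1* (0.0959), *Vrk1* (0.0986) and *B130006D01Rik* (0.101). *Phlda1* was at 133, 60.2 and 128 CPM against 49.97, 47.4 and 55.5 CPM, with the same dip in Nf1fl/fl;DhhCre replicate 2 that *Fos* had. Nearest to *Egr1* were *Spred1* (0.105), an inhibitor of RAS to ERK signalling, *Nfxl1* (0.125) and *Hes1* (0.129), a repressor downstream of Notch. *Spred1* was at 355, 270.4 and 329 CPM against 146, 116 and 151 CPM. Nearest to *Nr4a1* were *Tbc1d15* (0.0454), *Bcl6* (0.0535) and *Cdkal1* (0.0542).

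Other immediate-early transcription factors had a DEG in each direction. Of 20 such genes 18 were tested, 1 rose (*Nr4a2*) and 2 fell (*Ier5* and *Hes1*), with a median log2 fold change of -0.43. Over all genes tested, 8.03% were DEGs as higher and 5.36% as lower. Beside these shares, the few calls here and in the effector, upstream and kinase lists below are not read as a result about those lists. *Hes1* fell by 1.28 on the log2 scale (adjusted p = 0.0135 from limma-voom), and this was not called without Nf1fl/fl;DhhCre replicate 1 (-1.22, adjusted p = 0.0561) or without replicate 2 of each group (-1.15, adjusted p = 0.0524). Of 25 immediate-early effectors that are not transcription factors, 24 were tested and 2 fell, with a median of -0.17. None rose in limma-voom or edgeR and 1 did in DESeq2, with 4 higher at an unadjusted p below 0.05 in limma-voom. The 2 that fell were *Btg2*, an antiproliferative gene (-1.46, adjusted p = 0.0106 from limma-voom), and *Plk2*, a polo-like kinase gene (-1.26, adjusted p = 0.01 from limma-voom). Both remained DEGs in all 6 leave-one-out fits, and without the muscle-rich replicate 2 of each group *Plk2* was not called, at the 2-fold limit (adjusted p = 0.0245 from limma-voom).

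Upstream of the members, 14 of 14 SRF, TCF, MRTF and CREB genes were tested, with a median of -0.40, and only *Elk3* was a DEG. *Elk3*, a TCF that binds beside SRF, fell (-1.20, adjusted p = 0.0157 from limma-voom), and it was not called without Nf1fl/fl;DhhCre replicate 1 (-1.17, adjusted p = 0.0651) or replicate 3 (-0.97, adjusted p = 0.0431). Of 19 ERK, JNK and p38 kinase genes 18 were tested, with a median of 0.30. *Mapk10*, the JNK gene of neurons, rose (2.28, adjusted p = 0.0229 from limma-voom), as did *Rps6ka2*, an RSK kinase gene (1.49, adjusted p = 0.0215 from limma-voom), and *Rps6ka1*, another RSK kinase gene, fell (-1.54, adjusted p = 0.0388 from limma-voom). *Mapk10* and *Rps6ka2* were called in 3 of the 6 leave-one-out fits and *Rps6ka1* in 1. *Mapk10* and *Rps6ka2* were lost without Nf1fl/fl;DhhCre replicates 1 or 3 or replicate 2 labelled double knockout, with adjusted p up to 0.0789 in limma-voom, and *Rps6ka1* was kept only without Nf1fl/fl;DhhCre replicate 2. Downstream, 15 of 20 known AP-1 target genes were tested and 4 fell, with a median of -1.08. With all 6 libraries none rose in limma-voom at the settings used here or in edgeR, and 1 did in DESeq2. At an unadjusted p below 0.05 in limma-voom 1 was higher. Without Nf1fl/fl;DhhCre replicate 1 none of the 20 was a DEG and 7 were lower at an unadjusted p below 0.05, and without its replicate 2 there were 7 DEGs. Without replicate 2 labelled double knockout 3 of them were DEGs as lower and 1 as higher. The 2 with the largest fall at a moderate level were *Timp1*, an inhibitor of matrix metalloproteinases (-2.81, adjusted p = 0.0119 from limma-voom), and *Fn1*, which encodes fibronectin (-2.17, adjusted p = 0.012 from limma-voom). Both missed the threshold without Nf1fl/fl;DhhCre replicate 1 (adjusted p = 0.0501 and 0.0548 in limma-voom). The other 2 were *Ccnd1* and *Ereg*, and these 20 genes have other regulators too.

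Heat-shock and chaperone genes, some of which are induced by stress of cells or tissue, had a median above 0. They did not move as one. Named after their values were seen, *Hspa1a* (0.66, adjusted p = 0.489 from limma-voom) and *Hspa1b* (0.37, adjusted p = 0.602) overlapped between the groups. *Hspa5* had a negative log2 fold change (-0.51, adjusted p = 0.2 from limma-voom). Whether stress differed between the groups was not tested. All 15 were tested, and only *Hsp90aa1* was a DEG, at a log2 fold change of 1.44 (adjusted p = 0.00846 from limma-voom). There were 3 DEGs among them without replicate 3 labelled double knockout and 2 without Nf1fl/fl;DhhCre replicate 2, without its replicate 3 or without replicate 2 of both groups. The median was 0.66, 6 of the 15 had an adjusted p below 0.05 and were higher (11.1% of all genes were), and their summed level was 3032 to 3700.2 CPM against 5209 to 6225 CPM. Cell-type markers also differed between the groups, some lists lower and others higher in the libraries labelled double knockout. Of 14 macrophage markers 11 fell, with a median of -2.21 and summed levels of 1442 to 2588 CPM against 306 to 677 CPM. *Itgam*, the most abundant of them, fell by 2.89 on the log2 scale (adjusted p = 0.01 from limma-voom). Of 12 fibroblast markers 4 fell, with a median of -0.88 and sums of 9438 to 10181 CPM against 3749 to 6065 CPM, and *Dcn*, the most abundant, fell by 1.21 on the log2 scale (adjusted p = 0.0107 from limma-voom). Without replicate 2 of each group *Dcn* was just under 2-fold (-0.96, adjusted p = 0.0282 from limma-voom). *Thy1*, named after its values were seen, was higher without overlap but under 2-fold (0.98, adjusted p = 0.015 from limma-voom), and in 4 of the 6 leave-one-out fits 1 fibroblast marker was a DEG as higher.

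Of 21 sensory neuron markers 20 rose, with a median of 2.38 and sums of 1355 to 2794 CPM against 6748 to 15162 CPM, and *Nefl*, the most abundant, rose by 2.40 on the log2 scale (adjusted p = 0.012 from limma-voom). Neuron markers were thus present in both groups and higher in the group that the labels call tumor and the study's text DRG/tumors. Of 14 myelinating SC markers, among them *Egr2*, 11 rose, with a median of 1.49 and sums of 4840 to 5522 CPM against 10321 to 13784 CPM. *Pmp22*, the most abundant, rose by 1.21 on the log2 scale (adjusted p = 0.00835 from limma-voom). Of 13 general SC markers 3 rose and 2 were lower at an unadjusted p below 0.05 only, with a median of -0.12 and overlapping sums of 4502 to 4908 CPM and 3808 to 5210 CPM. No endothelial and mural marker (12 genes, median 0.00), granulocyte, mast, T and NK cell marker (14 genes, median -0.79) or skeletal muscle marker (14 genes, 13 tested, median 1.10) was a DEG in limma-voom with all 6 libraries at the settings used here. At an unadjusted p below 0.05 there were 5, 4 and 0 of them. DESeq2 called 1 endothelial and mural and 3 granulocyte, mast, T and NK cell markers, edgeR 2 of the latter, and neither called a muscle marker. In limma-voom 3 endothelial and mural markers were DEGs without replicate 3 labelled double knockout, 2 with sample quality weights and 1 without Nf1fl/fl;DhhCre replicate 2. Library size scaling, no filter and leaving out replicate 2 of each group each gave 1 granulocyte, mast, T and NK cell marker. The marker counts depended most on Nf1fl/fl;DhhCre replicate 1. Without it 1 general SC, 1 macrophage, 1 fibroblast, 2 neuron and 8 myelinating SC markers were DEGs, and 3, 11, 6, 21 and 12 had an unadjusted p below 0.05 in that direction. Without its replicate 3 there were 7 macrophage and 9 neuron marker DEGs, and without replicate 2 labelled double knockout there were 5 macrophage marker DEGs and 2 fibroblast markers fell. No marker was at 0 in all 6 libraries. The part of macrophages, fibroblasts, neurons and myelin, and of stress, in the fall of *Fosl2*, *Egr1* and *Egr3* was not tested.

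**Figure D5:**
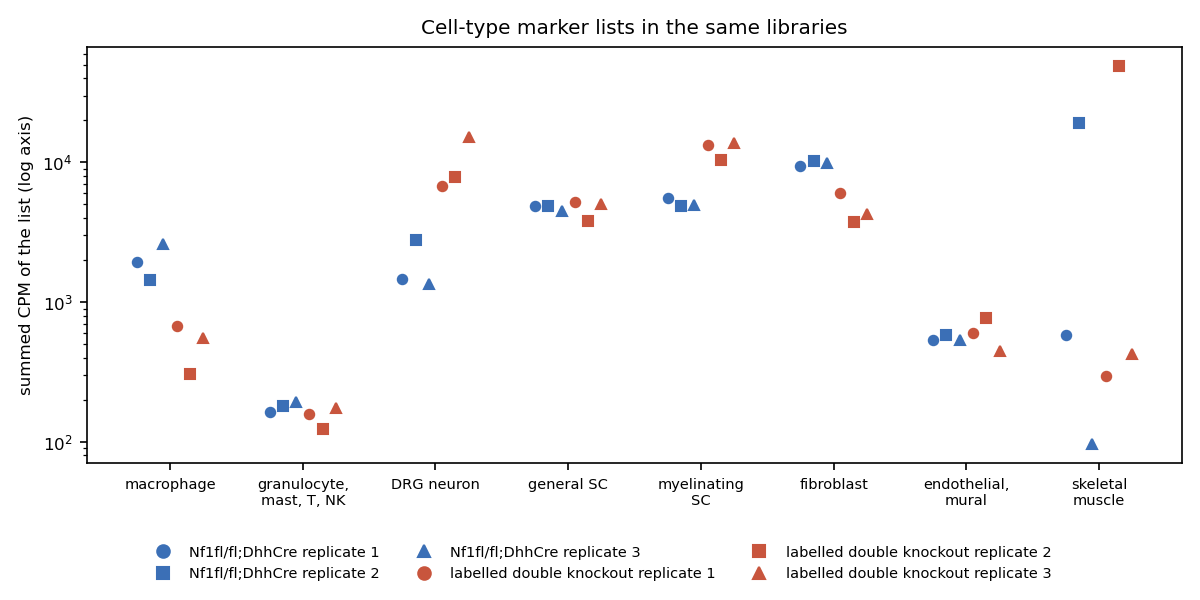
Summed CPM of the markers of each cell type in each library, on a log axis. Macrophage and fibroblast sums lie lower and sensory neuron and myelinating SC sums higher in all 3 libraries labelled double knockout (red) than in all 3 Nf1fl/fl;DhhCre libraries (blue), and skeletal muscle sums are highest in replicate 2 of each group.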

How the data were processed

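Bulk RNA-seq was analysed in 6 libraries, 3 per genotype. Per the labels and the study's methods, the authors amplified RNA with the NuGEN Ovation RNA-Seq System, prepared Nextera XT libraries, aligned reads to mm10 with TopHat and deposited the counts of reads per gene from featureCounts, unnormalized. Annotation, strandedness and the treatment of multiply aligned reads are not given in the sources used here. Low genes such as *Ier2*, *Fosb* and *Junb* rest on few reads, so their values are imprecise.

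The test, scaling and thresholds were those of the study, which names no filter. The study reports more DEGs than the 2096 found here, so its calls were not reproduced in full. The filter was filterByExpr, with a count of at least 10 and a total of at least 15, which left 15652 of 24062 genes. TMM factors and a limma-voom fit on genotype followed (limma 3.58.1, edgeR 4.0.16, R 4.3.3), with Benjamini-Hochberg adjustment across every tested gene. CPM used the TMM-scaled totals of tested genes, and log2 CPM a prior count of 0.5. Between libraries of one group the chi-square per degree of freedom was 21.7 to 133, so none was a copy. Gene positions and exon lengths came from GENCODE M21 (GRCm38) and promoters from RefSeq. Figures were drawn with matplotlib 3.10.9. The fit was also run on simulated data, and no result given here rests on that run.

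The members and lists were chosen with earlier results of these data known. Named were all members, *Runx1*, *Runx3* and *Nf1*, *Jun* and *Egr2*, up to 2 DEGs per direction in each pathway list (average log2 CPM of at least 3), the most abundant gene of each marker list, and the 3 genes nearest in pattern to *Fos*, *Egr1* and *Nr4a1*. Other relatives (*Egr4*, *Nr4a3*, *Ier3*, *Ccnd1*, *Ereg*) were named after their values were seen. A result that meets the rule is not reported here. Alternatives were DESeq2 1.42.0, edgeR's quasi-likelihood test, DESeq2 size factors in limma-voom, library size only, CPM above 1 in at least 3 libraries, no filter, sample quality weights and leaving out each library. Leaving out replicate 2 of both groups, and differences within a family, were chosen after seeing the data.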

Additional observations from a re-analysis of the deposited data

How the results depend on the processing

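Over the 8 settings other than leaving out 1 library, the 3 member DEGs *Fosl2*, *Egr1* and *Egr3* were called in each, and the number of members called was 3 except with DESeq2 (5), sample quality weights (4) and without replicate 2 of both groups (4). It ranged from 0, without Nf1fl/fl;DhhCre replicate 1, to 4 over the leave-one-out fits. In those fits all DEGs ranged from 362 (without Nf1fl/fl;DhhCre replicate 1; 1033 without its replicate 3 and 1018 without replicate 2 labelled double knockout) to 2285, against 2096. DEGs in the pathway and stress lists ranged from 3 to 22 against 15, with 24 in DESeq2, and in the marker lists from 13 to 50 against 49. The difference in the *Fos* share of the FOS genes ranged from -0.979 to 6.1 percentage points and that of *Fosl2* from -7.99 to -0.862. Log2 fold changes turned sign in these fits for *Jund* (-0.43 to 0.03), *Nr4a1* (-0.20 to 0.08, with 0.04 among them, and 0.02 with sample quality weights), *Nf1* (-0.18 to 0.04, with 0.04 and 0.01 among them) and the muscle gene *Ttn* (-1.69 to 2.78, with -0.99 among them). The cause was not tested. No paired analysis was possible because the labels give no replicate numbers. Depth limits *Fosl1*, *Fosb*, *Junb* and *Ier2*, with at most 64 counts in a library.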
